A study of Mus musculus with 6 samples.

Results

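The genes described here are 9 genes of inflammatory cell death: Pycard, Nlrp3, Casp1, Casp4, Gsdmd, Casp8, Ripk1, Ripk3 and Mlkl. They were taken by name from a table of 54532 genes, and each name matched a single row. All 9 passed the read filter, Pycard only through its wild-type libraries, and were among 13134 tested genes. Expression was measured by bulk RNA sequencing of the ischemic liver lobe of C57bl/6 mice. The lobe was kept without blood for 1 h and collected 12 h after its supply returned (warm ischemia/reperfusion injury). In the IRF8-cKO mice (3 libraries: IRF8-cKO-71, then IRF8-cKO-88, then IRF8-cKO-106) hepatocytes lacked interferon regulatory factor 8 (IRF8), a transcription factor of the interferon response, while the WT mice (3 libraries: WT-14, then WT-44, then WT-77) were wild type. All 6 libraries are from injured tissue, so there is no uninjured level to set them against. The labels used here give neither the driver of the hepatocyte deletion nor the sex or age of the mice, and do not say whether each library is a separate animal, so p-values measure the spread between these libraries. Library values are given below in the order IRF8-cKO-71, IRF8-cKO-88, IRF8-cKO-106 and WT-14, WT-44, WT-77.

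Inflammasomes are protein complexes that assemble when a cytosolic sensor detects damage or microbes. NLRP3 is such a sensor, and through the adaptor ASC, the product of Pycard, it activates caspase-1, which matures interleukin-1 beta and interleukin-18 and cuts gasdermin D into a form that opens pores in the plasma membrane (pyroptosis). Caspase-4, known in mice also as caspase-11, binds bacterial lipopolysaccharide and cuts gasdermin D directly. Caspase-8 starts apoptosis downstream of death receptors and holds back necroptosis, in which RIPK1 and RIPK3 kinases lead to the membrane-rupturing protein MLKL. In liver, Kupffer cells and infiltrating myeloid cells are the best known site of the NLRP3 inflammasome, while hepatocytes express caspase-8 and little RIPK3.

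The start regions of these genes are shown because IRF8 and the inflammatory factor NF-kB act through short DNA motifs near gene starts. RefSeq (GRCm38.p6, the build of mm10) gave 11 windows, from 250 bases before to 50 after a transcription start, for 8 of the 9 genes. The windows were searched on both strands for the interferon-stimulated response element core (GAAA, any 2 bases, GAAA), the ETS-IRF composite (GGAA, any 2 bases, GAAA), the STAT motif TTCNNNGAA, the AP-1 motif TGANTCA and the NF-kB consensus. The 250 bases before the start are given 5′ to 3′ for the gene with the largest difference (Pycard), for both genes with an NF-kB match (Nlrp3, Casp4) and for the gene with the STAT and interferon matches (Ripk1, the downstream of its starts). Capitals mark the matches that lie wholly before the start.
Pycard, chr7:127993868-127994117, minus strand: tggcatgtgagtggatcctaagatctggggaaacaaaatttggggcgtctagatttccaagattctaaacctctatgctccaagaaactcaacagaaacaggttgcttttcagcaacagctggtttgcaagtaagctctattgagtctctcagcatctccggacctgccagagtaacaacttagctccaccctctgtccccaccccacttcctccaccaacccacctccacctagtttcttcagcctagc
Nlrp3, chr11:59541319-59541568, plus strand: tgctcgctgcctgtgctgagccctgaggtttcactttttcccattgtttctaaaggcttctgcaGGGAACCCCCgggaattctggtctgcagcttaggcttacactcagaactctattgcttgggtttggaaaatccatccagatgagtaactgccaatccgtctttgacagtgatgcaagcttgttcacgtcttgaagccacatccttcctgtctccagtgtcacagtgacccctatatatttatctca
Casp4, chr9:5308599-5308848, plus strand: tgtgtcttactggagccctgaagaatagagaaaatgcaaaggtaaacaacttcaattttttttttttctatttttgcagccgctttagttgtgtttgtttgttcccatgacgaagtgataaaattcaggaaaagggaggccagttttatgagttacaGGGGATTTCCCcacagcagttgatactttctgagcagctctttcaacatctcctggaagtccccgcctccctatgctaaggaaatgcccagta
Ripk1, chr13:34002624-34002873, plus strand: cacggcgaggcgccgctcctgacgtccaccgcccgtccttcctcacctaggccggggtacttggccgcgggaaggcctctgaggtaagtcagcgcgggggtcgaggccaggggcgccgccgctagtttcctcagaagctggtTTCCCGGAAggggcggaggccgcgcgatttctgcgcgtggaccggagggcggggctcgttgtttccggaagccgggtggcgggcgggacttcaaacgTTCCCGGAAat
The Casp4 capitals are overlapping NF-kB matches, GGGGATTTCC and GGGATTTCCC, the second of which matches the consensus on both strands. The Nlrp3 match lies on the opposite strand. NF-kB matches were found for 2 of 8 genes, against 5.14% of all 27025 genes with a window, and both Casp4 windows hold the same site. The Ripk1 window held the STAT motif at 108 and at 11 bases before the start (9.55% of all genes hold it in a window). It also held an interferon core, GAAATCGAAA, which begins 5 bases before the start and ends 5 bases past it (3.99% of all genes), so it is not capitalised. No window of these genes held the ETS-IRF composite (3.16% of all genes) or the AP-1 motif (8.97%). A match describes the letters only.

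None of the 9 genes passed the genome-wide test between IRF8-cKO and WT livers. In 7 of 9 genes the log2 fold change was negative, and the median was -0.95, against 0.03 over all tested genes. In edgeR's quasi-likelihood test 0 of the 9 had an adjusted p under 0.05, while 182 of 13134 genes passed (1.39%), of which 0.937% of all tested genes were lower and 0.449% higher in IRF8-cKO. At an unadjusted p under 0.05, 4 of the 9 genes stood out (Pycard, Casp8, Casp4 and Mlkl), against 24.1% of all tested genes. DESeq2 called 2 of the 9 and 9.46% of the 14273 genes to which it gave an adjusted p, and edgeR without a low-count filter called 3 of the 9 and 7.15% of all genes with a read. In 3 genes (Pycard, Casp4 and Casp8) every IRF8-cKO library lay below every WT library in CPM (counts scaled to library size and composition), against 14.5% of all tested genes (28.9% in either direction). Scaling by library totals alone moved the median of all genes to 0.25 and that of the 9 genes to -0.72. Leaving out IRF8-cKO-88 gave a median of -1.53 for the 9 genes, and 2 of them (Casp4 and Casp8) passed, as did 8.83% of all genes tested in that fit.

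**Figure D1:**
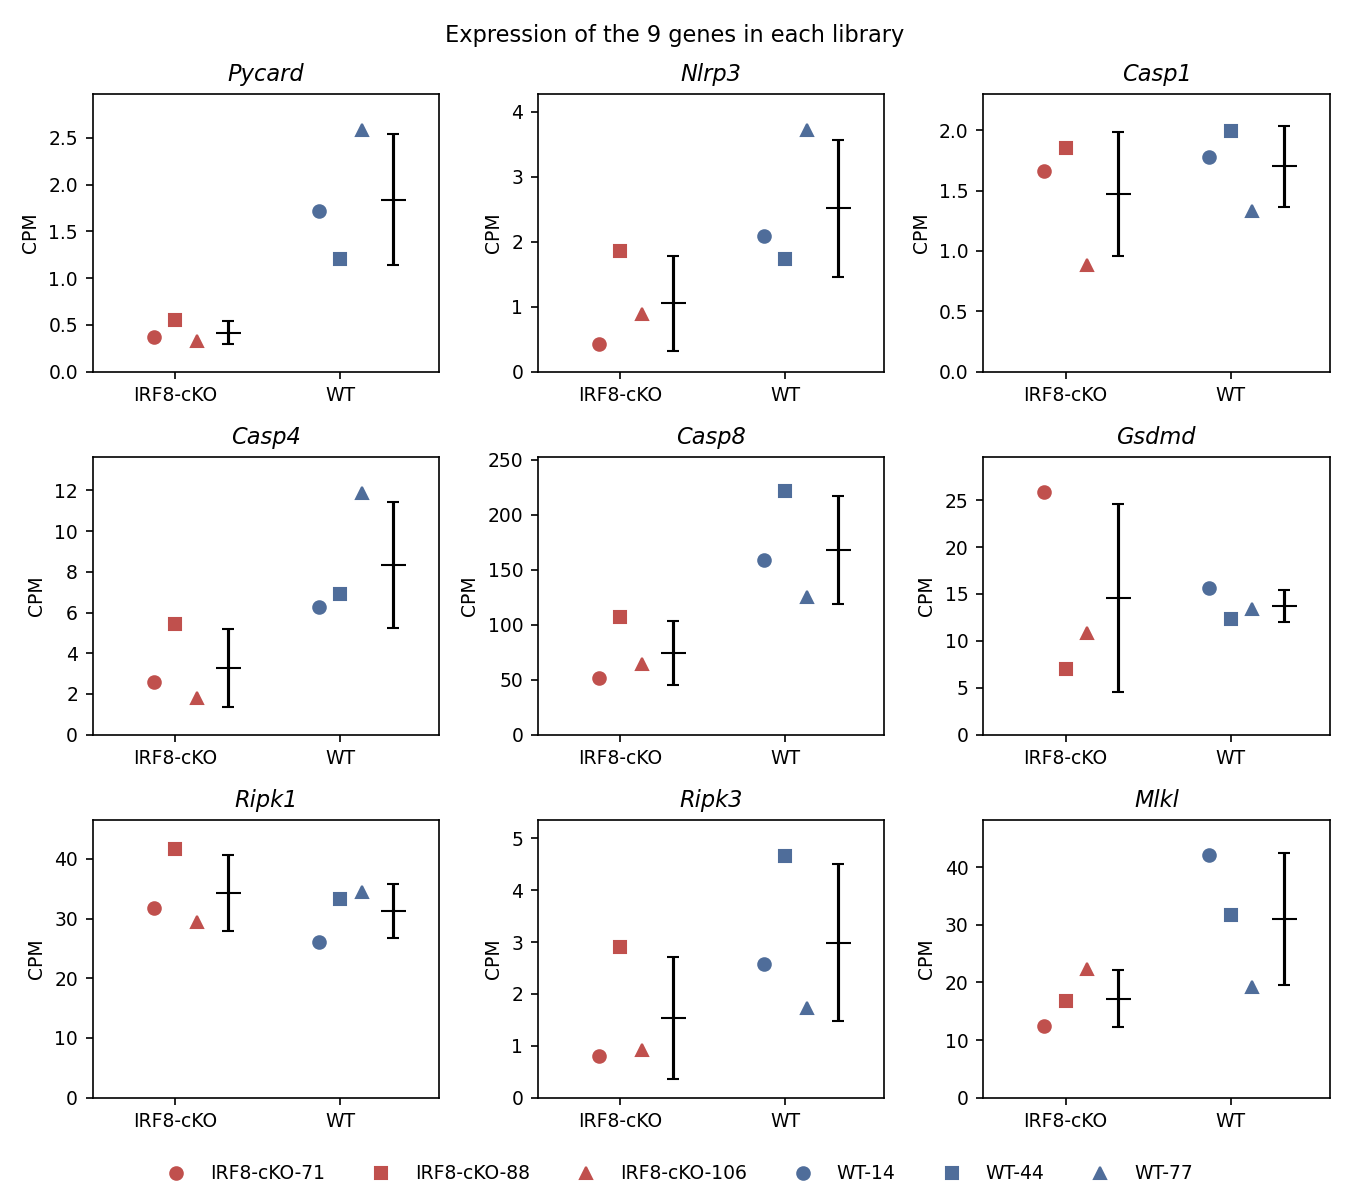
Expression of each gene in scaled counts (CPM, linear axis from 0) in the IRF8-cKO libraries (red) and WT libraries (blue), with the mean and SD of each group in black (n = 3). Pycard, Casp4 and Casp8 separate the groups, while Gsdmd and Ripk1 do not.

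Levels of different genes were compared per kilobase of gene length (RPKM, the CPM divided by the deposited gene length in kilobases; the transcripts used in liver may be shorter). Casp8 was the most abundant of the 9 in every library, at 25.7 ± 10.1 RPKM in IRF8-cKO and 58.1 ± 16.9 RPKM in WT (SD, n = 3 each), and Pycard the least abundant in every library, at 0.110 ± 0.0322 RPKM in IRF8-cKO and 0.484 ± 0.184 RPKM in WT. In IRF8-cKO livers the order between them was Mlkl, Gsdmd, Ripk1, Casp1, Casp4, Ripk3 and Nlrp3. Only the steps from Casp8 to Mlkl and from Ripk1 to Casp1 were larger than the spread, in that the libraries did not overlap. In WT livers the order was Mlkl, Gsdmd, Ripk1, Casp4, Ripk3, Casp1 and Nlrp3. There the steps down to Ripk1 had no overlap, and from Ripk1 (3.13 to 4.13 RPKM) to Casp4 (1.69 to 3.21 RPKM) and below all neighbours overlapped.

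Among the inflammasome genes the adaptor had the largest difference. Pycard (ENSMUSG00000030793, mm10 chromosome 7, 127989708 to 127993867, minus strand) was covered by 6, 9 and 7 reads in the IRF8-cKO libraries, against 28, 14 and 39 reads in the WT libraries. This was 0.370, 0.555 and 0.324 CPM in the IRF8-cKO libraries, against 1.72, 1.21 and 2.59 CPM in the WT libraries, with no overlap. Its log2 fold change was -2.14 (SE 0.55, 95% interval -3.37 to -0.90), a 4.40-fold lower level, with an adjusted p of 0.0758 in the edgeR test. DESeq2 gave an adjusted p of 0.0312 and edgeR without a low-count filter 0.0426. With any 1 library left out the log2 fold change stayed between -2.39 and -1.81 and the adjusted p between 0.0523 and 0.283. Few reads stand behind these values. Every IRF8-cKO library was under the minimum count of 10, so Pycard entered the test only through the WT libraries, where it was higher. An unconfirmed transcript on the opposite strand, Gm45205, overlaps 599 bases of Pycard and had 0 to 4 reads.

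The sensor Nlrp3 (ENSMUSG00000032691, chromosome 11, 59541568 to 59566956) had 7, 30 and 19 reads in the IRF8-cKO libraries and 34, 20 and 56 reads in the WT libraries. Its level was 1.05 ± 0.725 CPM in IRF8-cKO and 2.51 ± 1.06 CPM in WT (SD, n = 3 each). The groups overlapped, because IRF8-cKO-88 at 1.85 CPM exceeded WT-44 at 1.73 CPM. The log2 fold change was -1.25 (SE 0.60, 95% interval -2.59 to 0.08, edgeR adjusted p = 0.229). Leaving out IRF8-cKO-88 gave -1.91 (adjusted p = 0.0801).

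Casp1 and Casp4 are related genes that lie on the plus strand of chromosome 9, separated by 1562 bases, and reads shared by their similar stretches could be counted for either. Casp4 (ENSMUSG00000033538, 5308828 to 5336783) stood at 2.59, 5.43 and 1.81 CPM in the IRF8-cKO libraries, against 6.25, 6.91 and 11.9 CPM in the WT libraries. The libraries did not overlap, but IRF8-cKO-88 came close to WT-14. The fitted difference was -1.35 in log2 (SE 0.48, 95% interval -2.43 to -0.28, edgeR adjusted p = 0.137), and it passed without IRF8-cKO-88 (-1.93, adjusted p = 0.0316) and without a low-count filter (adjusted p = 0.0459). Casp1 (ENSMUSG00000025888, 5298517 to 5307265) had 19 to 30 reads in each library, or 1.66, 1.85 and 0.880 CPM in the IRF8-cKO libraries and 1.78, 1.99 and 1.33 CPM in the WT libraries. Its log2 fold change of -0.22 (SE 0.49, adjusted p = 0.814) had a 95% interval of -1.30 to 0.87 and turned to 0.07 without IRF8-cKO-106.

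Gsdmd (ENSMUSG00000022575, chromosome 15, 75862327 to 75867408, plus strand), the pore-forming substrate of both caspases, had similar group means and unequal spread. It stood at 25.9, 6.97 and 10.8 CPM in the IRF8-cKO libraries, against 15.6, 12.3 and 13.4 CPM in the WT libraries. The highest and the lowest of the 6 libraries were both IRF8-cKO, and the coefficient of variation was 68.5% in IRF8-cKO and 12.3% in WT. On the log2 scale the fold change was 0.08 (SE 0.44, 95% interval -0.90 to 1.07, edgeR adjusted p = 0.924), and it turned to -0.61 without IRF8-cKO-71 (adjusted p = 0.293) and to -0.14 in limma-voom.

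Casp8 had the largest absolute difference of the cell death genes. Casp8 (ENSMUSG00000026029, chromosome 1, 58795374 to 58847503, plus strand) was covered by 831 to 1735 reads in the IRF8-cKO libraries and 1875 to 2587 reads in the WT libraries. It stood at 51.2, 107 and 64.4 CPM in the IRF8-cKO libraries, against 159, 221 and 125 CPM in the WT libraries, with no overlap. Casp8 averaged 74.2 ± 29.2 CPM in IRF8-cKO and 168 ± 49.0 CPM in WT (SD, n = 3 each). Its log2 fold change was -1.18 (SE 0.35, 95% interval -1.97 to -0.39), a 2.26-fold lower level, with an adjusted p of 0.0971 in the edgeR test. Without IRF8-cKO-88 it was -1.53 and passed (adjusted p = 0.0291), and DESeq2 (adjusted p = 0.0306) and edgeR without a low-count filter (adjusted p = 0.0134) called it too. An unconfirmed transcript on the same strand, Gm37760, overlaps 3841 bases of Casp8 and had 0 to 41 reads.

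In the necroptosis arm none of Ripk1, Ripk3 and Mlkl passed, and the groups overlapped for each. Ripk1 (ENSMUSG00000021408, chromosome 13, 34002363 to 34037147, plus strand), the kinase scaffold at the death receptor, had the smallest error of the 9 genes. It stood at 31.8, 41.6 and 29.5 CPM in the IRF8-cKO libraries and at 26.1, 33.3 and 34.5 CPM in the WT libraries. Between genotypes the log2 fold change was 0.13 (SE 0.26, 95% interval -0.45 to 0.71, edgeR adjusted p = 0.788), and -0.03 without IRF8-cKO-88. Serpinb6a on the opposite strand overlaps 432 bases of Ripk1, and reads there cannot be assigned without strand.

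Ripk3 (ENSMUSG00000022221, chromosome 14, 55784995 to 55788865, minus strand), the kinase that activates MLKL, was covered by 13 to 54 reads. It stood at 0.802, 2.90 and 0.927 CPM in the IRF8-cKO libraries and at 2.57, 4.66 and 1.73 CPM in the WT libraries. IRF8-cKO-88 lay above WT-14 and WT-77. The fitted log2 difference was -0.95 (SE 0.62, 95% interval -2.32 to 0.42, edgeR adjusted p = 0.359). With IRF8-cKO-88 left out it was -1.76 (adjusted p = 0.0854).

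Mlkl (ENSMUSG00000012519, chromosome 8, 111311797 to 111338177, minus strand), the executioner of necroptosis, stood at 12.5, 16.7 and 22.3 CPM in the IRF8-cKO libraries. In the WT libraries it stood at 42.1, 31.8 and 19.3 CPM. The groups overlapped through IRF8-cKO-106 and WT-77. The log2 fold change was -0.85 (SE 0.35, 95% interval -1.62 to -0.08, edgeR adjusted p = 0.175), and it did not pass with any library left out (adjusted p 0.193 to 0.384).

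**Figure D2:**
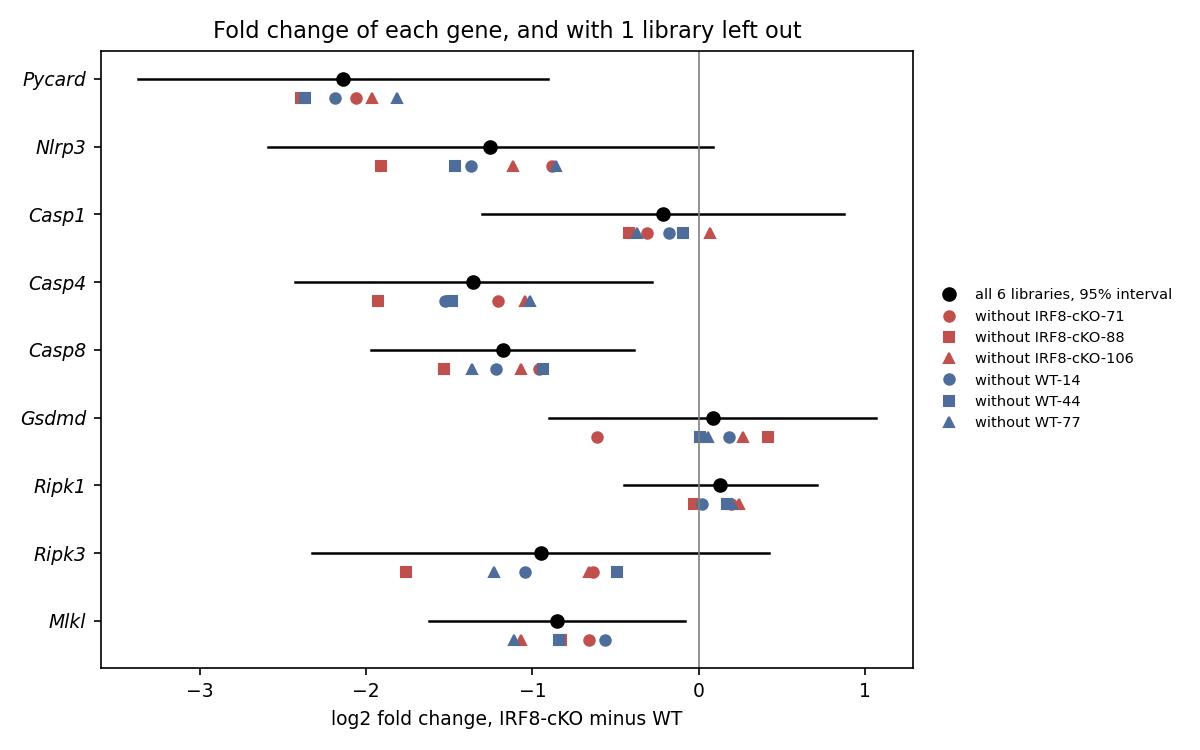
Log2 fold change (IRF8-cKO minus WT) of each gene from all 6 libraries with its 95% interval (black), and below it the values with each library left out in turn. Leaving out IRF8-cKO-88 (red square) gave the most negative value for Pycard, Nlrp3, Casp1, Casp4, Casp8, Ripk1 and Ripk3, and Gsdmd crossed 0 without IRF8-cKO-71 (red circle).

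The libraries of a genotype did not behave alike. With each gene centred on its own mean, IRF8-cKO-88 was at 0.30 for Nlrp3, 0.15 for Casp4, -0.01 for Casp8 and 0.57 for Ripk3 in log2 CPM, while IRF8-cKO-71 was at -1.53, -0.88, -1.07 and -1.13 and IRF8-cKO-106 at -0.68, -1.37, -0.74 and -0.95. Among WT libraries Pycard (1.44), Nlrp3 (1.26), Casp4 (1.26) and Ripk1 (0.09) were highest in WT-77. Casp1 (0.35), Casp8 (1.04) and Ripk3 (1.24) were highest in WT-44, and Gsdmd (0.25) and Mlkl (0.92) in WT-14. Measured by the root mean square difference between these centred profiles over the 6 libraries, the closest of the 9 to each other were Casp8 and Ripk3 (0.308), then Casp1 and Ripk1 (0.366), Pycard and Casp4 (0.384) and Nlrp3 and Casp4 (0.413). Nlrp3 and Gsdmd were the farthest apart (1.261).

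Over 10356 candidate genes, those with the profile closest to Pycard were Il1b (root mean square difference 0.20 in log2 CPM, 6 libraries) and Gm3839 (0.20). Sgk1 (0.16) and Ces1d (0.17) were closest to Nlrp3, and Socs2 (0.14) and Slc7a2 (0.15) to Casp4. Casp8 was matched by 2410002F23Rik (0.13) and Sult1d1 (0.14), and Ripk3 by 2410002F23Rik (0.25) and Glrx (0.25). Mettl9 (0.10) and Erh (0.11) were closest to Casp1, Zfp799 (0.07) and Ess2 (0.07) to Ripk1, Tfcp2l1 (0.16) and S100a10 (0.19) to Mlkl, and Qprt (0.05) and Hao1 (0.13) to Gsdmd. These genes are near by selection, as the closest of many candidates over only 6 libraries. Whether any is regulated together with its match was not tested.

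Some markers of other cell types also differed between the genotypes. Of the tested neutrophil markers 5 of 11 fell in IRF8-cKO, 0 rose and 6 did not pass, with a median log2 fold change of -2.37. Over all tested genes 0.937% fell and the median was 0.03. Without Lcn2, an acute-phase gene that hepatocytes also make, the 12 neutrophil markers summed to 26.2 to 65.3 CPM in IRF8-cKO and 204 to 270 CPM in WT, and with it to 786 to 4660 CPM in IRF8-cKO and 1260 to 3560 CPM in WT. Ly6g was at 0 in IRF8-cKO-106, Ngp in IRF8-cKO-71, and Camp in IRF8-cKO-88 as well as IRF8-cKO-71. Of the Kupffer cell markers 0 of 11 passed, at 193 to 405 CPM in sum in IRF8-cKO and 121 to 148 CPM in WT, and of the monocyte and macrophage markers 0 of 11, at 165 to 977 CPM in IRF8-cKO and 530 to 1120 CPM in WT. Most of the range of the latter sum was Cd14, at 42.9, 843 and 77.7 CPM in the IRF8-cKO libraries and 388, 670 and 969 CPM in the WT libraries. All 11 Kupffer cell log2 fold changes were positive (median 0.96), while 3 of the monocyte and macrophage list were positive and 8 negative. No marker of either list was at 0 in any library. Of the cholangiocyte markers 0 of 6 passed, although all 6 had negative log2 fold changes (median -2.19). All 6 also lay lower without overlap, against 14.5% of all tested genes. The list summed to 129 to 250 CPM in IRF8-cKO and 457 to 937 CPM in WT. Most of that sum was Spp1, at 116 to 209 CPM in IRF8-cKO and 408 to 855 CPM in WT. Of the erythroid and platelet markers 1 of 8 fell and 0 rose, and all 8 log2 fold changes were negative (median -1.64). They summed to 105 to 157 CPM in IRF8-cKO and 232 to 333 CPM in WT, with none at 0.

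The part of these cell types in the differences of Pycard, Nlrp3, Casp4 and Casp8 was not tested, and in bulk tissue fewer cells of a type and less RNA per cell cannot be told apart. Hepatocyte markers were abundant in every library, at 65800 to 84000 CPM in sum in IRF8-cKO and 82100 to 128000 CPM in WT, with 0 of 10 passing. Their median log2 fold change was -0.55, with 8 negative and 2 positive. The remaining lists had 0 passing members: 0 of 8 for sinusoidal endothelium (128 to 193 CPM in IRF8-cKO, 137 to 194 CPM in WT), 0 of 7 for stellate cells (150 to 236 CPM in IRF8-cKO, 173 to 272 CPM in WT) and 0 of 5 for dendritic cells (71 to 94.2 CPM in IRF8-cKO, 154 to 200 CPM in WT; Xcr1 at 0 in WT-44). Most of the dendritic cell sum was Bst2, an interferon-induced gene that other cells also express, at 74.6 ± 11.6 CPM in IRF8-cKO and 167 ± 22.7 CPM in WT (SD, n = 3 each). Clec9a, a marker of cross-presenting dendritic cells, stood at 2.12 ± 0.0963 CPM in IRF8-cKO and 0.927 ± 0.574 CPM in WT, without overlap (log2 fold change 1.21, edgeR adjusted p = 0.208). Batf3 of the same list went the other way, also without overlap (log2 fold change -2.01, edgeR adjusted p = 0.164). Its level was 0.385 ± 0.3 CPM in IRF8-cKO and 1.54 ± 0.73 CPM in WT. Of all tested genes 14.4% lay higher and 14.5% lower in IRF8-cKO without overlap. Among the 5 tested dendritic cell markers, 1 log2 fold change was positive and 4 were negative. For T and NK cells 0 of 3 passed (4.03 to 7.71 CPM in IRF8-cKO, 3.13 to 6.38 CPM in WT, with Ncr1 at 0 in 5 libraries and Cd8a in WT-14). For B cells 0 of 1 passed (2.84 to 5.98 CPM in IRF8-cKO, 6.38 to 16.4 CPM in WT, with Pax5 at 0 in WT-14). Irf8 itself, the targeted gene, had 92, 109 and 90 reads in the IRF8-cKO libraries and 152, 110 and 155 in the WT libraries (log2 fold change -0.81, SE 0.33, edgeR adjusted p = 0.174). The groups did not overlap in CPM, and myeloid cells in the tissue also express Irf8.

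**Figure D3:**
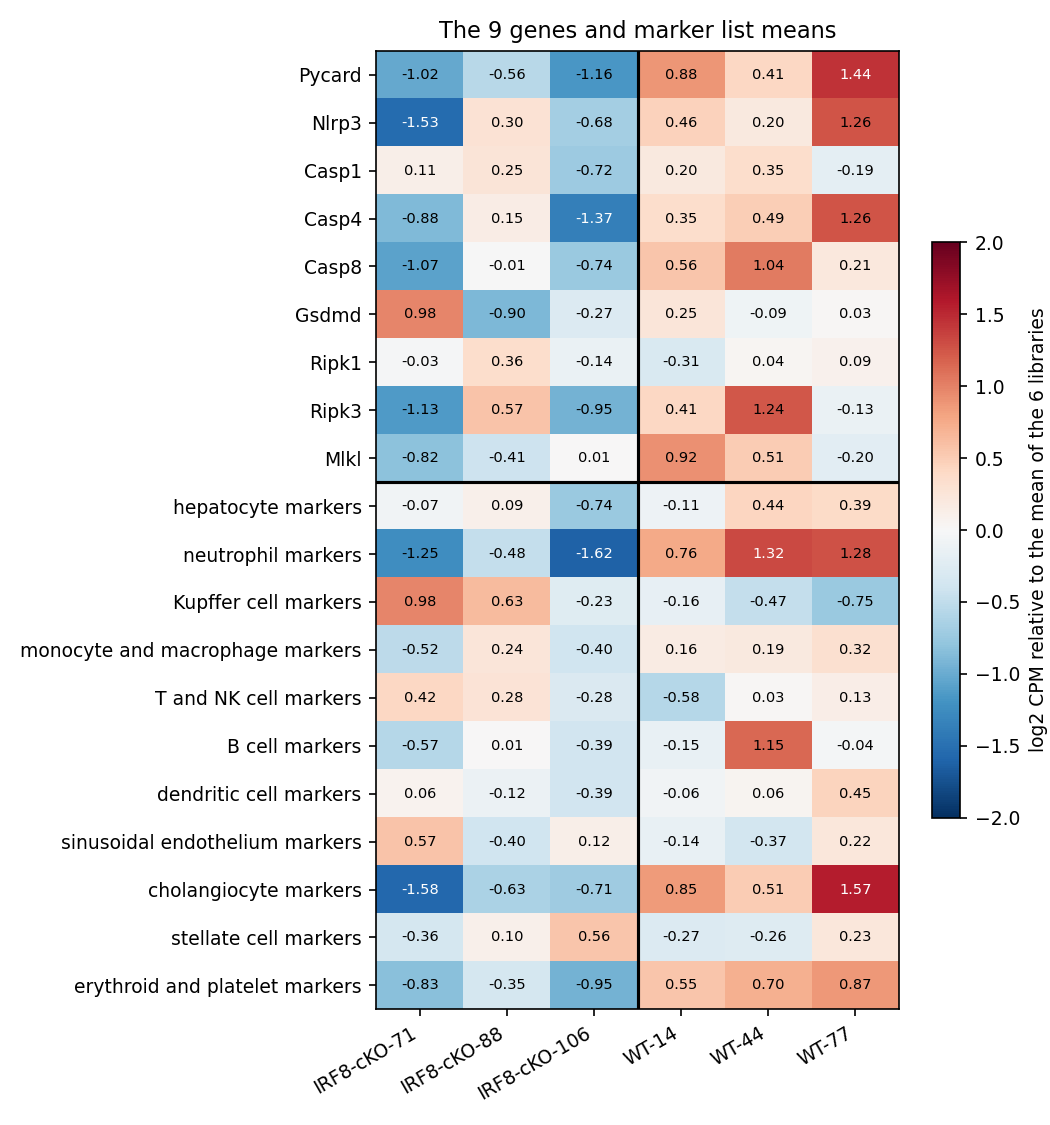
Log2 CPM relative to the mean of the 6 libraries for each of the 9 genes (above the line) and the mean over each marker list (below it), IRF8-cKO libraries left and WT libraries right. The rows of Pycard, Casp4 and Casp8 and of the neutrophil, cholangiocyte and erythroid lists are lower in every IRF8-cKO library than in every WT library.

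The surrounding pathway was read from 8 lists of related genes, some of which share genes with the 9. Medians within 0.1 of 0 changed sign under some alternatives and give no direction. Of the inflammasome sensors 0 of 10 tested passed, with a median of -0.37. Nlrp12 was the most abundant sensor per length (19.9 RPKM in IRF8-cKO, 13.1 RPKM in WT) and did not pass (log2 fold change 0.61, adjusted p = 0.390), nor did Naip2, a sensor of bacterial secretion proteins (0.71, adjusted p = 0.343). Nlrp1a, Nlrp1b and Nlrp10 were below the count filter. Of the adaptors, triggers and brakes 0 of 13 passed (median -0.39), with Gbp2, an interferon-induced GTPase that helps expose bacterial lipopolysaccharide, at -1.34 (adjusted p = 0.145).

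Of the pyroptosis substrates and effectors 1 of 9 fell (as did 0.937% of all tested genes), 0 rose and 8 did not pass (median -0.62). The gene that fell was Il1b, the cytokine that caspase-1 matures, with 3.95, 4.75 and 4.40 CPM in the IRF8-cKO libraries, against 15.8, 9.58 and 18.2 CPM in the WT libraries. Its log2 fold change was -1.73 (SE 0.35, edgeR adjusted p = 0.0472). The call was kept without IRF8-cKO-88 (adjusted p = 0.0244) and lost without each of IRF8-cKO-71, IRF8-cKO-106, WT-14, WT-44 and WT-77 (adjusted p 0.0618 to 0.207), with log2 fold changes between -1.97 and -1.55. It was also lost with library totals only (adjusted p = 0.092) and in limma-voom (adjusted p = 0.0525). Il18, the other cytokine matured by caspase-1, stood at -0.92 and did not pass (adjusted p = 0.184). Its groups did not overlap, as in 14.5% of all tested genes in that direction.

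Of the caspases 0 of 9 tested passed, with a median of -0.33 and 8 of 9 log2 fold changes negative. Casp9, the initiator activated by the apoptosome, stood at 8.88 ± 1.31 CPM in IRF8-cKO and 11.2 ± 3.09 CPM in WT (SD, n = 3 each), with a log2 fold change of -0.33 (edgeR adjusted p = 0.557). Casp6 stood at 8.10 ± 1.32 CPM in IRF8-cKO and 10.1 ± 1.39 CPM in WT (log2 fold change -0.32, adjusted p = 0.542).

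Around the death receptors 0 of 10 passed (median 0.04). Fadd, the adaptor that brings caspase-8 to the receptor, stood at 10.5, 3.89 and 6.02 CPM in the IRF8-cKO libraries and at 3.92, 1.90 and 2.79 CPM in the WT libraries. The groups overlapped, and its log2 fold change of 1.24 did not pass (SE 0.47, adjusted p = 0.154). The ligand genes Tnf and Fasl were below the count filter, and the ligand gene Tnfsf10 (TRAIL) did not pass (log2 fold change 0.72, adjusted p = 0.443). Of the necroptosis core and its triggers 0 of 9 passed (median 0.09), with the Toll-like receptor adaptor gene Ticam1 at 0.44 (adjusted p = 0.335) and the nucleic acid sensor gene Zbp1 at -0.42 (adjusted p = 0.581).

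Of 16 genes of the ubiquitin and kinase checkpoint on RIPK1, 1 rose (as did 0.449% of all tested genes), 0 fell and 15 did not pass (median 0.02). The gene that rose was Ikbkg (ENSMUSG00000004221, chromosome X, 74393290 to 74453854), encoding NEMO, the regulatory subunit of the IkB kinase. It stood at 132, 126 and 175 CPM in the IRF8-cKO libraries, against 66.4, 41.3 and 41.8 CPM in the WT libraries (log2 fold change 1.54, SE 0.30, edgeR adjusted p = 0.0447). The call was lost without IRF8-cKO-106, WT-44 or WT-77 (adjusted p 0.108 to 0.212) and with library totals only (adjusted p = 0.0599). G6pdx on the opposite strand overlaps 19712 bases of Ikbkg and had 54 to 483 reads, so the Ikbkg count is uncertain without strand. The feedback genes Tnfaip3 (-1.39, adjusted p = 0.0888) and Birc3 (-1.31, adjusted p = 0.0877) did not pass, although the groups did not overlap for either. In this list 4 genes lay lower and 2 higher without overlap, while 14.5% and 14.4% of all tested genes did. DESeq2, edgeR without a low-count filter and the fit without IRF8-cKO-88 each called 1 of the 16 higher and 2 lower. These fits called 9.46%, 7.15% and 8.83% of all genes.

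Of the apoptosome genes 0 of 8 passed (median -0.27). Apaf1, its scaffold, stood at -0.82 (adjusted p = 0.380) and passed without IRF8-cKO-88 (-1.79, adjusted p = 0.0260), where IRF8-cKO-88 had 19.7 CPM and the other IRF8-cKO libraries 3.08 and 7.0 CPM, against 15.9 to 18.7 CPM in WT. Bid, the caspase-8 substrate that links death receptors to mitochondria, stood at 0.48 (adjusted p = 0.408).

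**Figure D4:**
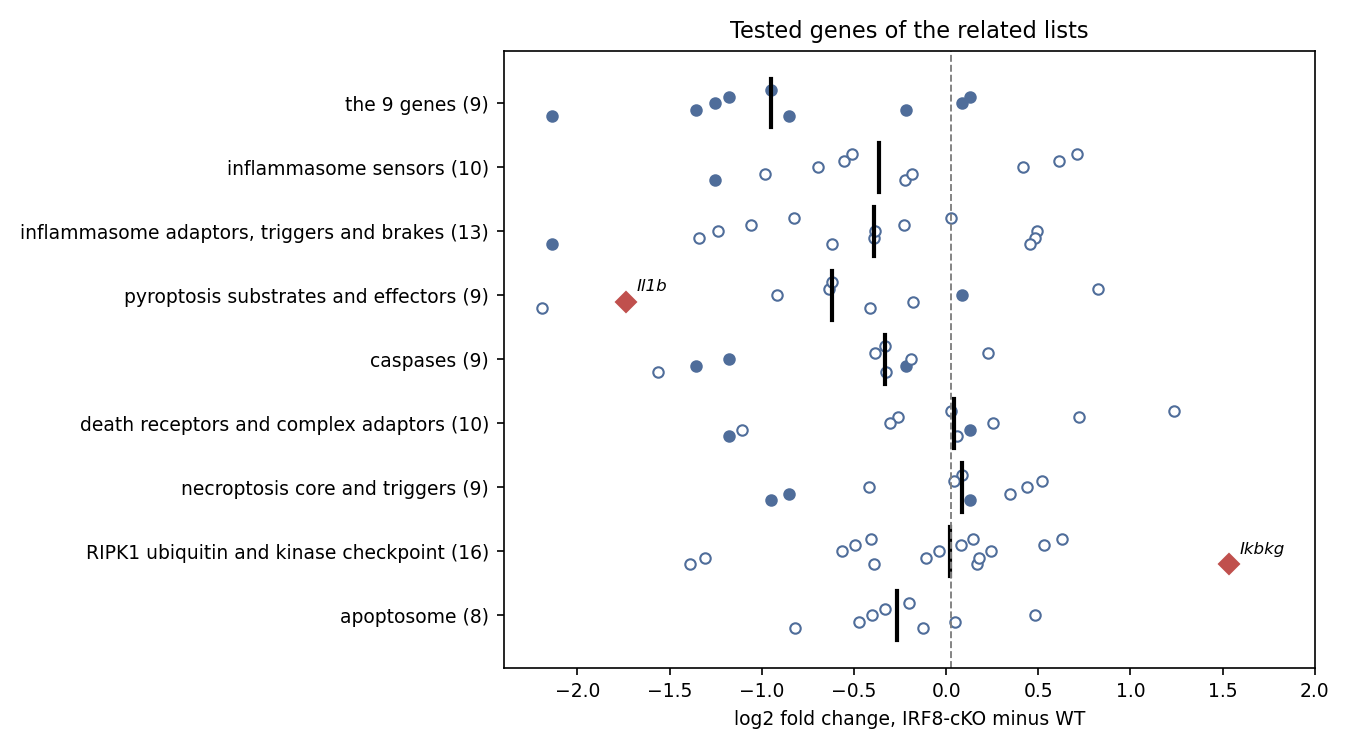
Log2 fold change (IRF8-cKO minus WT) of every tested gene of the 9 genes and of 8 related lists, with the number tested in brackets. Filled blue circles are the 9 genes wherever they occur, open circles are other genes, red diamonds pass the test (Il1b and Ikbkg), black bars are list medians and the dashed line is the median of all tested genes.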

How the data were processed

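Bulk RNA sequencing of 6 liver libraries (3 IRF8-cKO, 3 WT; 14758237 to 16805830 counts each) was analysed from raw read counts per gene, which the authors deposited without normalisation. Per the submitters' processing notes, HISAT2 2.0.5, featureCounts 1.5.0-p3 and mm10 were used; for strand and multiply mapped reads the settings were not given in the sources used here. Gene length is the deposited value. Columns were tied to samples by title, and libraries of a group differed far beyond sampling noise.

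Genes with at least 10 counts in enough libraries and 15 in total (filterByExpr) were tested in R 4.3.3 by edgeR 4.0.16 (TMM, robust quasi-likelihood fit, group as the only term, two-sided, Benjamini-Hochberg adjustment over 13134 genes, threshold 0.05). The biological coefficient of variation was 37.1%. Profiles used log2 CPM with a prior count of 2. The pipeline was tested on simulated data. Alternatives included DESeq2 1.42.0 and limma-voom (limma 3.58.1).

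The members and lists were chosen with earlier results of these data known. Named genes were the 9 genes, the passing members of each list (at most 4) or else the 2 with the lowest p, Irf8, and the 2 closest profiles per gene among protein-coding genes of mean log2 CPM at least 1. Other genes were named after their values were seen. Of the listed symbols 1, Irgb10, matched no row by name. Some genes of the lists are counted but not reported here by name.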

Additional observations from a re-analysis of the deposited data

How the results depend on the processing

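Across 14 alternatives, 114 of 125 refitted values of the 9 genes kept their direction and side of the threshold, 7 passed where the reported fit did not, and 4 changed sign. The sign changes were Gsdmd at -0.14 in limma-voom and between -0.61 and 0.42 with 1 library left out, Casp1 between -0.42 and 0.0684, and Ripk1 between -0.0293 and 0.24. The count of the 9 genes that passed was 3 without a low-count filter and 2 in DESeq2, and 0 to 2 with 1 library left out. The count over all genes, 182, became 82 with library totals only, 1723 without a low-count filter, 1350 in DESeq2 and 111 in limma-voom, and 0 (without WT-77) to 1205 (without IRF8-cKO-88) with 1 library left out. With library totals only the called genes split into 39 higher and 43 lower, against 59 and 123. The cause of these shifts was not tested. Pycard was below the filter of at least 1 CPM in 3 libraries and has no value there. That filter took CPM from library totals alone, unlike the scaled CPM given above. With 6 to 39 reads for Pycard, 7 to 56 for Nlrp3 and 13 to 54 for Ripk3, counting error adds to the spread. No paired analysis was possible because the groups share no replicate number.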

Other observations

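Ratios within a library, of levels per kilobase, do not depend on the scaling between libraries. They were chosen after the values were seen and were given no test. The ratio of Casp8 to Ripk1 was 4.65, 7.42 and 6.30 in the IRF8-cKO libraries (in number order) and 17.5, 19.1 and 10.4 in the WT libraries, without overlap. The ratio of Casp4 to its neighbour Casp1 was 0.628, 1.18 and 0.828 in the IRF8-cKO libraries and 1.42, 1.40 and 3.61 in the WT libraries, also without overlap. The ratio of Casp8 to Mlkl overlapped, at 3.55 ± 1.42 in IRF8-cKO and 4.56 ± 1.37 in WT (SD, n = 3 each), as did that of Mlkl to Ripk3, at 15.1 ± 9.13 in IRF8-cKO and 11.4 ± 4.75 in WT. The other ratios taken, of Ripk3 to Ripk1, Nlrp3 to Pycard and Gsdmd to Casp1, overlapped as well.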
